A study of Mus musculus with 9 samples.

Results

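The suppressors of cytokine signalling form a family of 8 genes, Socs1 to Socs7 and Cish, and all 8 were chosen by gene symbol from the 21983 genes of the count table. They were read in lung RNA of BALB/c mice, an inbred laboratory strain, with 3 libraries in each of 3 groups. In the labels the first 2 groups count as untreated. The control group consisted of normal mice given saline by mouth from day 14. The asthma group consisted of asthmatic mice given saline on the same schedule, and the BSYQF group of asthmatic mice treated from that day with a herbal preparation named Bu-Shen-Yi-Qi formula, at 20 g raw herbs/kg and, by its label, for 6 weeks. The labels used here state neither how asthma was induced nor the age of the mice. They number replicates without tying each to its own mouse, and p-values therefore reflect only how these libraries scatter, part of which can be technical.

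SOCS proteins are feedback brakes on cytokine receptors. A cytokine bound to its receptor activates Janus kinases (JAKs), the kinases phosphorylate STAT transcription factors, and the STATs switch on target genes, among them SOCS genes. The SOCS protein then binds the receptor or the kinase through its SH2 domain, and a SOCS box at its end recruits elongins and cullin 5 to mark the bound proteins for degradation. In asthma the family is of interest because IL-4, IL-13, TSLP, IL-6 and interferon-gamma all signal through JAKs. Socs1 blocks JAKs directly and is best known as a brake on interferon-gamma and IL-4 signalling. Socs3 acts on receptors that use gp130 and on the G-CSF receptor. Cish is a classical STAT5 target gene, Socs2 restrains growth hormone signalling, and Socs4 to Socs7 have been linked mainly to receptor tyrosine kinases.

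The genes lie apart in the genome (GRCm38, also called mm10; GENCODE vM21). Socs1 spans chr16:10782240-10785536 (minus strand), Socs3 spans chr11:117966079-117970047 (minus strand) and Cish spans chr9:107296026-107302784 (plus strand). Socs7 lies elsewhere on chromosome 11, and Socs2, Socs4, Socs5 and Socs6 on chromosomes 10, 14, 17 and 18. All 8 are annotated as protein coding. Of the exon bases of Cish, 7.46% are shared with an antisense gene and 4.07% with a pseudogene on the other strand, and the other 7 members share none with another gene.

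Promoter windows of 4 members, Cish, Socs1, Socs3 and Socs4, were read from the RefSeq table (GRCm38.p6), each with 250 bases before a transcript start and 50 from it on. No window was read for the other members, which does not show that the table lacks them. The windows of the 3 genes whose means were highest relative to control are printed because STAT factors bind a palindrome, TTCNNNGAA, which reads the same on both strands. Capitals mark each match.
Cish, chr9:107296409-107296708, plus strand: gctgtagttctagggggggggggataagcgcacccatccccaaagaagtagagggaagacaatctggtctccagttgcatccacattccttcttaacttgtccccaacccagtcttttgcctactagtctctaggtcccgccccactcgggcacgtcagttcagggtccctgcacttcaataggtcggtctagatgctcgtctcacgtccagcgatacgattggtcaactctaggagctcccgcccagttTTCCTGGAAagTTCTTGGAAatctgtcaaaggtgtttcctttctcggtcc
Socs3, chr11:117969317-117969616, minus strand: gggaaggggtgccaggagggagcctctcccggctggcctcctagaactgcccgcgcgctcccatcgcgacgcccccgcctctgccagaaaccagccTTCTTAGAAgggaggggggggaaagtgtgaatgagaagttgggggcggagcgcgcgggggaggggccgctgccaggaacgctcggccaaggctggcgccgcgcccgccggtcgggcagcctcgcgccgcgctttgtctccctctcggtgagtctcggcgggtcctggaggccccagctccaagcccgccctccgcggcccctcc
Socs1, chr16:10785487-10785786, minus strand: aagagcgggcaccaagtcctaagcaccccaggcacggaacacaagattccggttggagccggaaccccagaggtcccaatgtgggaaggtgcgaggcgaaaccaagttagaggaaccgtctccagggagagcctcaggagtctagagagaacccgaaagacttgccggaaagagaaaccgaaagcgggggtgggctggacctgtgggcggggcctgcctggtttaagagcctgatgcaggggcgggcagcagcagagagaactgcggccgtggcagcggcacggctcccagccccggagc
The Cish window holds 2 matches, TTCCTGGAA beginning at the start site (position 1) and TTCTTGGAA beginning at position 12. The Socs3 window holds 1, TTCTTAGAA, beginning at position -154. The windows of Socs1 and Socs4 hold none, which says only that these letters are absent from them. Of 32851 windows in the table, 8.30% hold at least 1 match and 0.457% hold at least 2. The same half-sites spaced by 4 bases in place of 3, found in 6.95% of all windows, occurs in none of the 4. G and C made up 53.3% of the Cish window, 63.3% of Socs1 and 73.3% of Socs3, beside a median of 52.7% over all windows. A match is a string of letters and was not tested as a binding site.

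The libraries held 16286385 to 22819199 gene counts each, and 14739 genes, including all 8 family members, passed the filter on low counts. Levels are given in CPM, counts scaled to a common library size, and changes as log2 fold changes ± SE, with p-values adjusted over all genes tested. Some libraries stood apart. The share of counts on mitochondrial genes was 10.3% in asthma replicate 2 and 6.53% in BSYQF replicate 1, against 2.19 to 5.05% elsewhere. The lung markers Sftpc, Sftpa1, Sftpd, Scgb1a1 and Ager, of alveolar and club cells, summed to between 43105 and 73281 CPM in every library, so the tissue carried its defining genes. In bulk tissue, a change in the number of cells of a type and a change in RNA per cell cannot be told apart.

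The comparison of asthma with control asks how the asthma model changes these feedback genes. Socs1 and Socs3 rose, to a mean of about 3.11 and 2.23 times control, and these were the 2 of 8 members that passed the test. Cish lay above every control library in all 3 asthma libraries without passing. The other 5 members, Socs2 and Socs4 to Socs7, had log2 fold changes between -0.40 and 0.26 and did not pass. Of all genes tested, 8.23% were called higher and 4.45% lower, so 2 called genes of 8 is a small number to read against that background. The median log2 fold change was 0.07 over the 8 members and 0.02 over all genes.

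**Figure D1:**
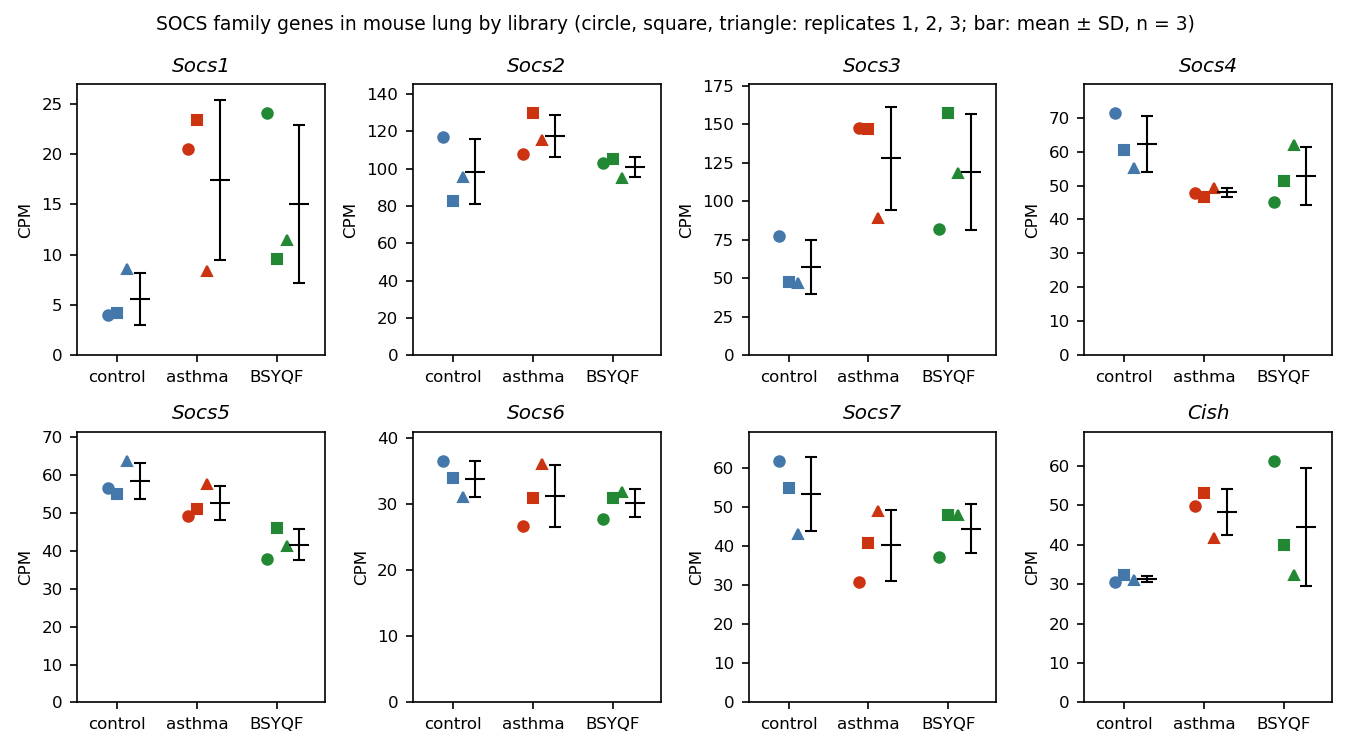
Level of each SOCS family gene (CPM, linear axis from 0) in the 9 libraries, by group; points are libraries and the black bars are the mean ± SD of 3. Socs1 and Socs3 are highest in asthma replicates 1 and 2 among the asthma libraries, while every asthma library of Socs4 lies below every control.

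Socs1, the direct JAK inhibitor, was at 3.999, 4.15 and 8.57 CPM in control replicates 1, 2 and 3, and at 20.5, 23.4 and 8.38 CPM in asthma replicates 1, 2 and 3. Asthma replicate 3 thus lay at the level of the highest control, and the groups overlapped through these 2 libraries alone. Its log2 fold change was 1.64 ± 0.47, with a 95% interval of 0.61 to 2.67 (adjusted p = 0.0462). The counts behind it were 71 to 161 in control and 187 to 363 in asthma, the lowest of the family.

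Socs3, the brake on gp130 receptors, was at 77.6, 47.7 and 46.7 CPM in the controls and at 147, 147 and 89.3 CPM in the asthma libraries. Every asthma library lay above every control, with asthma replicate 3 again nearest to them. The log2 fold change was 1.16 ± 0.29, with a 95% interval of 0.53 to 1.79 (adjusted p = 0.0317). The authors' deposited table of this comparison lists 1746 genes from the same libraries. Socs1 and Socs3 were the 2 family members in it, at 1.62 and 1.13. By its name, that table is cut on fold change and on p-value, so absence from it is not a test result.

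Cish, the STAT5 target, was nearly constant in control, at 30.6, 32.3 and 31.0 CPM, and stood at 49.7, 53.1 and 41.8 CPM in asthma. The groups did not overlap, and the log2 fold change was 0.62 ± 0.21 (95% interval 0.16 to 1.09, adjusted p = 0.0723). With only the control and asthma libraries in the fit, Cish was called (adjusted p = 0.0295).

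Socs2, which limits growth hormone signalling, was at 82.8 to 117 CPM in control and 108 to 129 CPM in asthma, with overlapping groups (0.26 ± 0.15, adjusted p = 0.256). Socs4 was at 55.1 to 71.2 CPM in control and 46.7 to 49.3 CPM in asthma, so each asthma library lay below each control. Its log2 fold change of -0.38 ± 0.15 did not pass (adjusted p = 0.111). Values for Socs5, Socs6 and Socs7 were -0.15 ± 0.13, -0.11 ± 0.15 and -0.40 ± 0.20, and their groups overlapped. In all, 2 members did not overlap in the higher direction and 1 in the lower, beside 22.0% and 18.4% of all genes tested.

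**Figure D2:**
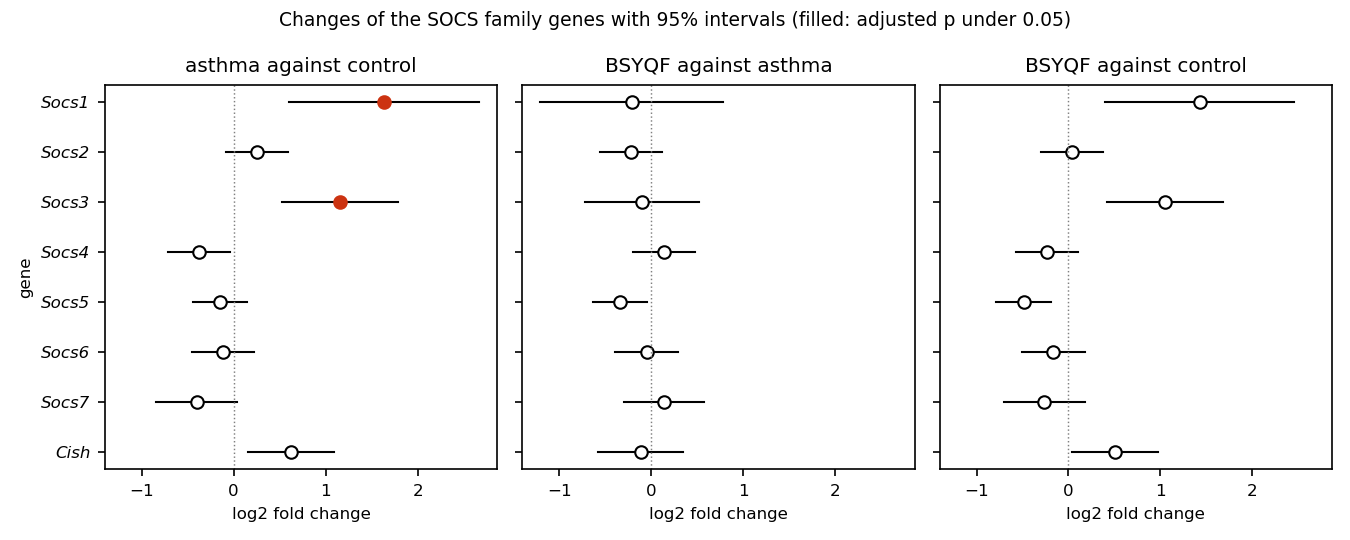
Log2 fold change (horizontal axis) of each SOCS family gene in the 3 comparisons, with 95% intervals; filled points passed at an adjusted p under 0.05. Socs1 and Socs3 in asthma against control are the 2 filled points.

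Both calls depended on single libraries. Without control replicate 2 or 3, or without asthma replicate 1 or 2, 0 members were called, with log2 fold changes of 1.35 to 2.09 for Socs1 and 1.02 to 1.04 for Socs3. Without control replicate 1 or BSYQF replicate 2, Socs3 alone was called. Without asthma replicate 3, BSYQF replicate 1 or BSYQF replicate 3, Socs1, Socs3 and Cish were called. Over the 9 such fits Socs1 was called in 3, Socs3 in 5 and Cish in 3. All 9 kept each of the 3 genes above control. Calls over all genes moved as well, from 1869 with all 9 libraries. Without control replicates 1, 2 and 3 in turn they were 438, 182 and 357. Without asthma replicates 1, 2 and 3 they were 171, 248 and 4262, and without BSYQF replicates 1, 2 and 3 they were 2646, 944 and 2232.

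**Figure D3:**
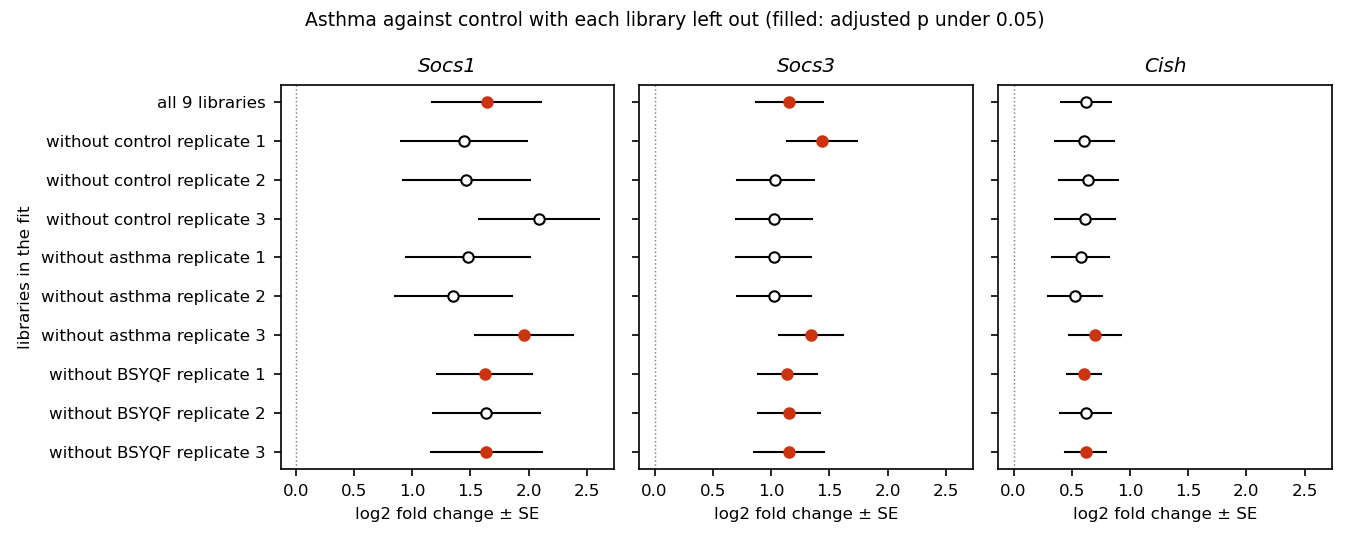
Log2 fold change ± SE of Socs1, Socs3 and Cish in asthma against control (horizontal axis), with all 9 libraries and with each library left out (vertical axis); filled points passed at an adjusted p under 0.05. Socs1 passes in 3 of the 9 reduced fits and Socs3 in 5.

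Markers of some other cell types also differed in asthma, where 8.23% of all genes were called higher and 4.45% lower. The 6 macrophage markers, all called higher in asthma, summed to 151 to 252 CPM in control and 712 to 803 CPM in asthma, and the 4 plasma cell markers, also all called higher, to 269 to 477 and 2989 to 4195 CPM. Pulmonary vein cardiomyocyte markers summed to 304 to 766 and 77.3 to 159 CPM, with 5 of 5 called lower, and adipocyte markers to 28.5 to 115 and 0.874 to 8.11 CPM, with 3 of 4 called lower. Lep was at 0 in all 3 asthma libraries, Plin1 in asthma replicate 1 and Adipoq in asthma replicate 2. Endothelial markers summed to 2234 to 3370 and 1304 to 2357 CPM, with 1 of 4, Kdr, called lower. T cell markers (73.0 to 132 and 90.0 to 122 CPM), B cell markers (118 to 299 and 205 to 345 CPM) and neutrophil markers (182 to 716 and 329 to 576 CPM) overlapped, with 0 called. The part of these cells in the changes of Socs1 and Socs3 was not tested.

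The comparison of BSYQF with asthma asks whether the formula shifts the feedback genes in asthmatic lung. No member passed the test, in a comparison where 0.00678% of all genes (1 gene) were called higher and 0% lower by edgeR. DESeq2 also called 0 members, beside 122 genes called over all. By edgeR 1 member, Socs5, had an unadjusted p under 0.05, as did 1171 of all 14739 genes. Means of Socs1, Socs3 and Cish with BSYQF stayed within 0.21 of asthma on the log2 scale, and their intervals reach to both sides of 0.

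Socs1 was at 24.04, 9.53 and 11.5 CPM in BSYQF replicates 1, 2 and 3, a spread as wide as in asthma, and the groups overlapped. Its log2 fold change against asthma was -0.21 ± 0.45, with a 95% interval of -1.20 to 0.78. Socs3 was at 81.7, 157 and 118 CPM (-0.10 ± 0.28, interval -0.72 to 0.52). Cish was at 61.3, 39.9 and 32.4 CPM (-0.11 ± 0.21, interval -0.58 to 0.35). BSYQF replicate 1 therefore held the highest Socs1 and Cish of all 9 libraries and the lowest Socs3 of its group.

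Socs5, which has been linked to EGF receptor and IL-4 receptor signalling, was at 49.4, 51.1 and 57.7 CPM in asthma and at 37.9, 46.0 and 41.3 CPM with BSYQF. Each BSYQF library lay below each asthma library, and the log2 fold change of -0.34 ± 0.14 did not pass (adjusted p = 0.609). Socs2 also did not overlap, at 108 to 129 CPM in asthma and 94.9 to 105.1 CPM with BSYQF (-0.22 ± 0.15, adjusted p = 0.662). These were the 2 members lower without overlap, against 4.76% of all genes; 0 members were higher without overlap, against 4.99%. Socs4, Socs6 and Socs7 were at 0.14 ± 0.15, -0.05 ± 0.15 and 0.14 ± 0.20, with overlapping groups.

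The comparison of BSYQF with control shows where treated asthmatic lung stood relative to normal lung, and it uses the same control libraries as the comparison of asthma with control. No member was called, beside 1.63% of all genes called higher and 0.0407% lower, while 4 members had an unadjusted p under 0.05 by edgeR, as did 2330 of all 14739 genes. Socs1 was at 1.43 ± 0.47 (95% interval 0.40 to 2.46, adjusted p = 0.173) and Socs3 at 1.05 ± 0.29 (interval 0.42 to 1.68, adjusted p = 0.0987). Cish was at 0.51 ± 0.21 (adjusted p = 0.275), and for all 3 genes each BSYQF library lay above each control. The lowest BSYQF values were near the highest control values, however. They were 9.53 and 8.57 CPM for Socs1, 81.7 and 77.6 CPM for Socs3, and 32.4 and 32.3 CPM for Cish. Socs5 was at -0.49 ± 0.14 (adjusted p = 0.107), with 54.9 to 63.8 CPM in control and 37.9 to 46.0 CPM with BSYQF, and likewise did not overlap. That made 3 members higher and 1 lower without overlap, against 13.0% and 11.8% of all genes.

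DESeq2 called Socs1, Socs3 and Socs5 in BSYQF against control (adjusted p = 0.0399, 0.0135 and 0.0289). Over all genes DESeq2 called 806 in this comparison, where edgeR called 246. Without asthma replicate 3, edgeR called Socs3. The authors' deposited table of this comparison lists 896 genes and holds Socs1 at 1.42 and Socs3 at 1.05. Their table of BSYQF against asthma, with 424 genes, lists 0 members. By their names, both tables are cut on fold change and on p-value, which the edgeR calls are not on fold change. Because a call in one comparison and none in another is no test of a difference, the direct comparison of BSYQF with asthma above is the one that bears on the formula.

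**Figure D4:**
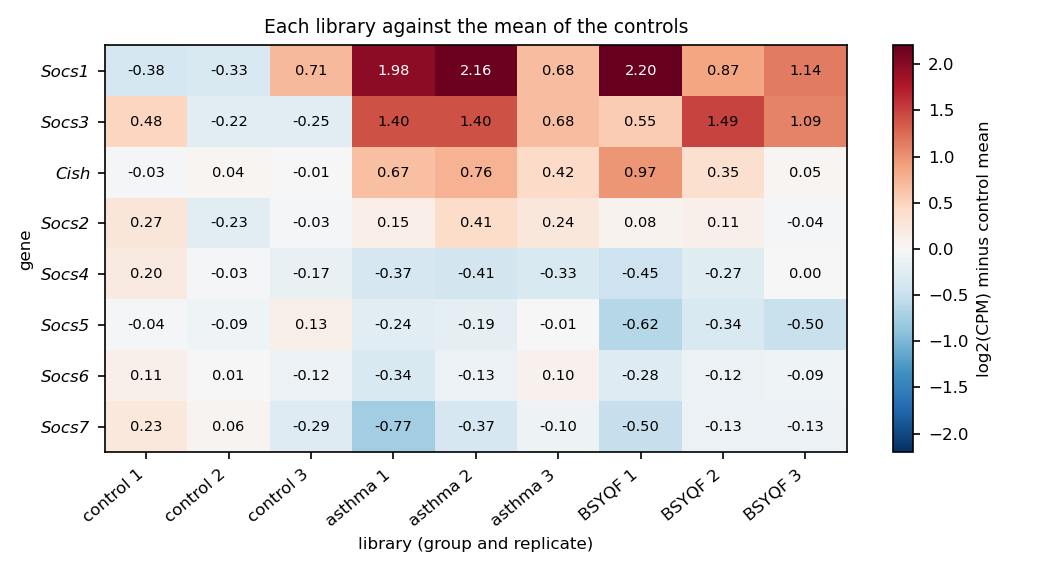
Log2 CPM of each SOCS family gene (rows) in each library (columns) minus the mean of the 3 controls; red is above and blue below the controls. Socs1 reaches 1.98 and 2.16 in asthma replicates 1 and 2 and 2.203 in BSYQF replicate 1, but 0.68 in asthma replicate 3.

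Set side by side, the libraries differed between members. Socs1, Socs3 and Cish were above the control mean in all 6 libraries of asthmatic mice, by 0.68 to 2.203, 0.55 to 1.49 and 0.05 to 0.97 on the log2 scale. Socs5 was below it in all 6, by -0.62 to -0.01, and Socs7 likewise, by -0.77 to -0.10. Socs4 was below it in 5 and at 0.0022 in BSYQF replicate 3. Socs6 was below it in 5 and at 0.10 in asthma replicate 3. Socs2 was above it in 5, by 0.08 to 0.41, and at -0.04 in BSYQF replicate 3. As a description of likeness over the 9 libraries, log2 CPM was standardised per gene and the mean absolute difference taken. Among the 8 genes Socs6 and Socs7 were the most alike at 0.313 SD, followed by Socs1 and Cish at 0.427 SD, and Socs4 and Cish were the least alike at 1.64 SD.

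Over all genes with a mean of at least 1 CPM, the 3 most like Socs1 were Cenps, Dcst1 and Ankrd55, at 0.0994, 0.109 and 0.163 SD. Cenps, which encodes a centromere protein, was at 1.78, 2.05 and 3.72 CPM in control and 8.999, 11.8 and 4.84 CPM in asthma. Those most like Socs3 were Prr16, Car13 and Gpr176, at 0.184, 0.200 and 0.201 SD. The median over the 14001 candidates was 1.08 SD for Socs1 and 1.10 SD for Socs3. The named genes were picked as the nearest, so their place far below this median follows from the choice. In control Dcst1 was at only 0.324 to 0.851 CPM and Gpr176 at 0.234 to 0.702 CPM.

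The family's summed level was 371 to 456 CPM in control, 447 to 522 CPM in asthma and 418 to 488 CPM with BSYQF. Of that sum, Socs3 made up 12.5 to 17.0% in control, 20.0 to 30.7% in asthma and 19.5 to 32.2% with BSYQF. Socs2 held 21.6 to 25.8% in all 9 libraries. Socs1 went from 0.878 to 2.29% in control to 1.88 to 4.48% in asthma and 1.95 to 5.75% with BSYQF. These shares are of counts, which long transcripts inflate.

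Per kilobase of merged exon, Socs3 was the highest member in each group, at 19.8 ± 6.08 CPM per kb in control, 44.2 ± 11.5 in asthma and 41.2 ± 13.0 with BSYQF (SD, n = 3). Socs2 came next at 10.3 ± 1.82, 12.3 ± 1.16 and 10.6 ± 0.568 CPM per kb. In control, Socs5 (9.11 ± 0.739) and Socs4 (9.06 ± 1.19) followed, and these 3 neighbours did not differ beyond their spread. Socs7 (7.33 ± 1.29), Cish (4.88 ± 0.135), Socs6 (2.98 ± 0.243) and Socs1 (1.92 ± 0.892 CPM per kb) came after them. In asthma Cish (7.51 ± 0.905) and Socs1 (5.997 ± 2.74) stood 4th and 6th, and the levels of Cish, Socs4, Socs1 and Socs7 were too close to order within their spread. The order rests on the length used: per kilobase of the longest coding transcript Socs2 (44.3 CPM per kb in control) stood above Socs3 (22.5), since its many transcripts give a merged exon length of 9.53 kb against 2.22 kb.

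The ligands that induce SOCS genes were mostly scarce in these libraries. Of all genes tested, 8.23% were called higher in asthma and 4.45% lower. Among ligands of common gamma or beta chain receptors and TSLP, 5 of 11 were tested and 1 rose in asthma, Il21, a T cell cytokine, with 0, 1 and 0 counts in control and 17, 35 and 8 in asthma. Il4 had at most 11 counts in any library and Il13 at most 16, and neither was tested. Among gp130 and related ligands 9 of 11 were tested, of which Lif and Il10 rose and Lep fell. Lif, a gp130 ligand, was at 2.59, 4.04 and 4.63 CPM in control and 16.5, 7.39 and 6.50 CPM in asthma (1.43 ± 0.40, adjusted p = 0.0440). Il10, an inducer of Socs3 in macrophages, was at 1 to 3 counts in control and 22 to 49 in asthma. Il6 (2.42 ± 1.28 to 7.27 ± 5.63 CPM, adjusted p = 0.113) and Osm (4.22 ± 1.98 to 12.4 ± 6.37 CPM, adjusted p = 0.0621) did not pass. Of 4 interferons Ifng alone was tested, with 5 to 19 counts in any library and no call.

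Receptor genes were called as well, beside 8.23% of all genes called higher and 4.45% lower in asthma. Of 16 receptor genes of the common gamma or beta chain and TSLP group, 6 rose in asthma and 0 fell: Csf2rb, Csf2rb2, Il3ra, Crlf2, Il21r and Csf2ra. Csf2rb, the shared chain of the IL-3, IL-5 and GM-CSF receptors, went from 38.2 ± 5.14 to 90.1 ± 18.7 CPM (1.24 ± 0.18, adjusted p = 0.00671). Il4ra, which encodes a chain of the IL-4 receptor, was at 0.13 ± 0.16 and did not pass. Of 9 gp130 and related receptors Osmr (0.78 ± 0.19) and Il10rb (0.81 ± 0.24) rose and Lifr (-0.66 ± 0.17) fell. Among interferon receptors Ifngr2 rose (0.94 ± 0.20), 1 of 4, and among growth hormone family receptors Ghr fell (-0.87 ± 0.25), 1 of 4.

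Of the 4 Janus kinases Jak3, the kinase paired with the common gamma chain, rose by 1.03 ± 0.26 (adjusted p = 0.0326), from 37.0 to 46.6 CPM in control to 52.3 to 108 CPM in asthma. Among the STAT genes Stat5b fell by 0.50 on the log2 scale (SE 0.14, adjusted p = 0.0445), and Stat3 (0.23 ± 0.13) and Stat6 (-0.22 ± 0.14) did not pass. Of 12 other inhibitors of the pathway the phosphatase Ptpn2 rose by 1.01 ± 0.21 (adjusted p = 0.0199) and the adaptor Sh2b3 fell by 0.65 (SE 0.19, adjusted p = 0.0493). The 6 SOCS box ligase partners, among them the elongins Elob (0.56 ± 0.19) and Eloc (0.49 ± 0.19) and the cullin Cul5 (-0.14 ± 0.13), had 0 calls. Their median was 0.48, and by edgeR 3 of the 6 had an unadjusted p under 0.05, as did 5028 of all 14739 genes. All these counts stand beside 8.23% of all genes called higher in asthma and 4.45% called lower.

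**Figure D5:**
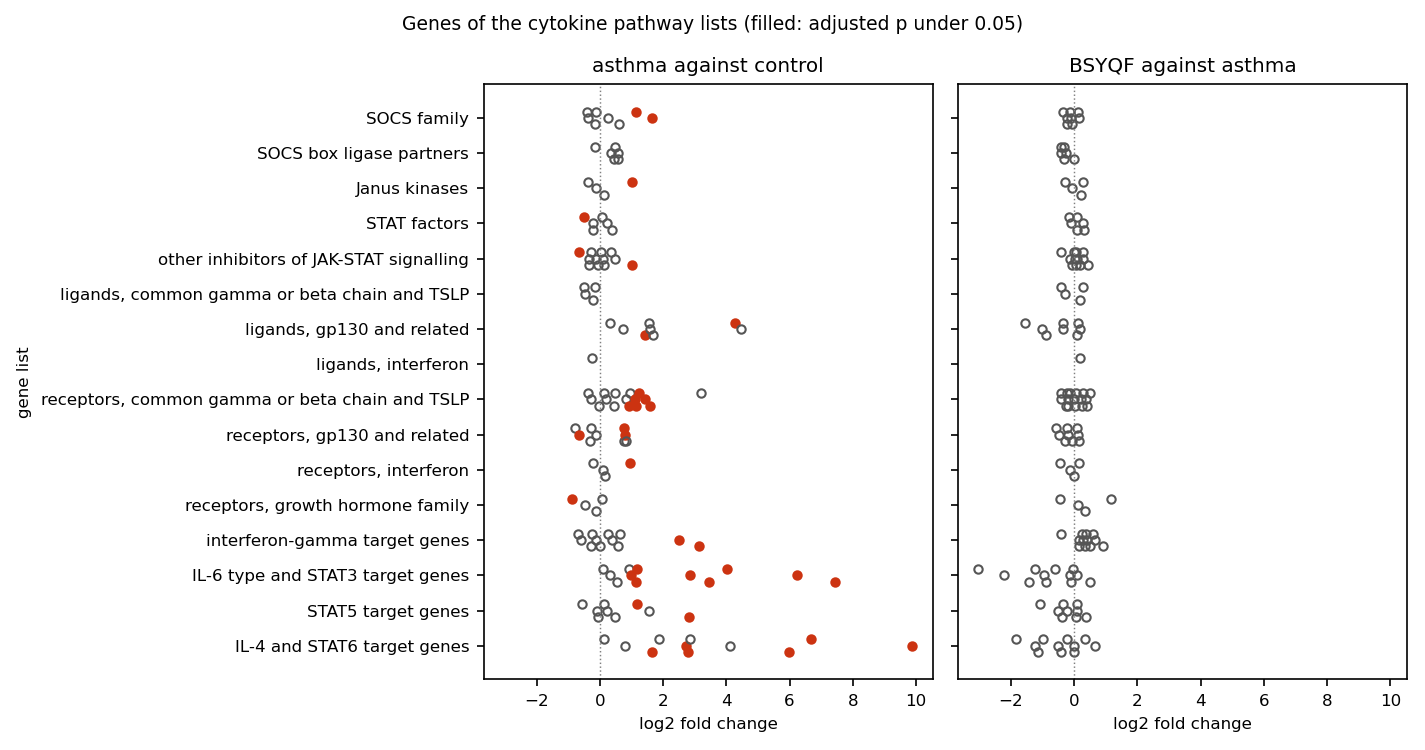
Log2 fold change (horizontal axis) of each tested gene in the cytokine pathway lists (rows), in asthma against control and BSYQF against asthma; filled points passed at an adjusted p under 0.05. Il21 and Lep, with 3 counts or fewer in a whole group, are left out, and the row of STAT factors is not complete; 8 of 12 genes in the row of IL-6 type and STAT3 targets are filled at left and 0 at right.

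Target genes of the cytokines differed in how many moved in asthma, where 8.23% of all genes were called higher and 4.45% lower. These lists were chosen with earlier results of these data known, so differences between them can reflect that choice. Of 12 IL-6 type and STAT3 target genes 8 rose in asthma and 0 fell, with a list median of 1.16. The 4 with the smallest p were Lcn2, which encodes a siderophore-binding protein (4.005 ± 0.41), the secreted glycoprotein gene Lrg1 (2.85 ± 0.31), the IL-1 receptor antagonist gene Il1rn (3.46 ± 0.44) and the protease inhibitor gene Timp1 (6.23 ± 0.82). Of 11 IL-4 and STAT6 target genes 6 rose, with a median of 2.78, among them the chemokine gene Ccl22 (2.74 ± 0.42) and the macrophage receptor gene Mrc1 (1.64 ± 0.28), which is also a macrophage marker here. Of 12 interferon-gamma target genes 2 rose, the chemokines Cxcl9 (3.12 ± 0.39) and Cxcl10 (2.51 ± 0.50). The guanylate-binding proteins Gbp2 to Gbp5 were at -0.70 to -0.12 without a call, and the list median was 0.13. Of 9 STAT5 target genes Igf1 (2.80 ± 0.60) and Pim1 rose. Pim1 is also among the 12 IL-6 type and STAT3 targets, so its call is counted in both lists. Likewise, the target genes Osm, Il2ra and Il4ra stand in the ligand or receptor lists too.

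In BSYQF against asthma 0 genes of the 4 target lists were called, and 3 of the 4 medians lay below 0. The IL-4 and STAT6 targets had a median of -0.42, with 8 of 11 below asthma, and the STAT5 targets a median of -0.22, with 5 of 9 below. The IL-6 type and STAT3 targets had a median of -0.74, with 10 of 12 below asthma and 7 of 12 at an unadjusted p under 0.05 by edgeR, beside the 1171 of 14739 over all genes. Timp1 was at 459, 396 and 60.7 CPM in asthma and 46.9, 49.4 and 16.4 CPM with BSYQF (-3.02 ± 0.69, adjusted p = 0.321). The interferon-gamma targets had a median of 0.36, with 11 of 12 above asthma. Gbp5 was at 16.6 ± 1.41 CPM in asthma and 31.2 ± 4.07 CPM with BSYQF (0.91 ± 0.17, adjusted p = 0.209). The median over all genes was -0.0048.

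Against control, fewer list genes were called with BSYQF than in asthma, a difference in counts that was not tested. The same held over all genes, with 1869 called in asthma and 246 with BSYQF. The receptor chains Csf2rb (1.26 ± 0.18) and Csf2rb2 (1.81 ± 0.27) were called higher, as were Lcn2 (3.06 ± 0.39), Lrg1 (1.63 ± 0.29), Saa3 (5.23 ± 0.93) and Il1rn (2.05 ± 0.42) among the 12 IL-6 type and STAT3 targets. Of the 12 interferon-gamma targets Cxcl9 (3.54 ± 0.40) and Gbp5 (0.80 ± 0.17) rose, and of the 11 IL-4 and STAT6 targets 4 rose. Il21 had 20, 37 and 44 counts with BSYQF, and 0 genes were called among the Janus kinases and SOCS box partners.

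Markers of other cells also differed among the BSYQF libraries and from asthma. Neutrophil markers summed to 147, 920 and 1632 CPM in replicates 1, 2 and 3, macrophage markers to 874, 635 and 426 CPM, and T cell markers to 159, 145 and 207 CPM. All 6 T cell, 4 adipocyte and 5 cardiomyocyte markers lay higher than asthma without overlap, beside 4.99% of all genes, with 0 called. By edgeR 4 T cell, 4 adipocyte and 5 cardiomyocyte markers had an unadjusted p under 0.05, as did 1171 of 14739 genes. The part of these cells in the levels of the SOCS genes was not tested.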

How the data were processed

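Mouse lung RNA was sequenced in 9 libraries, 3 a group. Per the labels' protocols, RNA was isolated with Trizol and 3 µg went into NEBNext Ultra libraries. Listed per the submitters' processing notes are the build mm10 and the tools STAR, HTSeq, cutadapt, FastQC and DESeq2, without versions or roles. For the gene annotation and the use of strand no source was at hand. The authors deposited unnormalized counts per gene symbol, the input of every test. Per the file headers, the authors' 3 comparison tables hold a log2 fold change, a p-value and its adjusted form; their 36 columns of values per library were not used.

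Counts were filtered (filterByExpr, minimum count 10), scaled with TMM and fitted in edgeR 4.0.16 (R 4.3.3) by robust quasi-likelihood in 1 model of 3 groups without a block, with Benjamini-Hochberg adjustment across 14739 genes and calls under 0.05. The SE is the log2 fold change divided by the square root of F. The script was tested on simulated data. A count of 3 equals 0.134 to 0.202 CPM, and such limits cover counting error only. Log2 CPM used a prior count of 2 for likeness, and levels per kilobase used GENCODE vM21 exons. Between groups, deviations of same-numbered libraries from their group means correlated at -0.259 to 0.339, and of differently numbered ones at -0.428 to 0.368. DESeq2 1.42.0, other scalings and left-out libraries were alternatives.

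Members and lists were chosen with earlier results of these data known. All 8 members were named, up to 4 called genes of a list per comparison, JAK and STAT genes and the ligands and receptors given with counts, and the 3 genes most like each called member. One gene of the lists is not reported here. Other named genes, such as Il4ra, Gbp5 and Timp1, were picked after their values were seen.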

Additional observations from a re-analysis of the deposited data

How the results depend on the processing

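Of 384 member values under 16 alternatives, 355 kept their direction and side of the threshold, 11 lost a call, 8 gained one and 10 changed sign, each of these 10 in a member never called in that comparison and with a library left out. In asthma against control 0 of 128 changed sign. In BSYQF against asthma, leaving out a library gave ranges of -0.71 to 0.061 for Socs1, -0.35 to 0.12 for Socs3, -0.40 to 0.070 for Cish, -0.14 to 0.073 for Socs6 and -0.0053 to 0.31 for Socs7, and in BSYQF against control -0.074 to 0.18 for Socs2. Leaving out a library moved the members called in asthma against control between 0 and 3 and in BSYQF against control between 0 and 1. Genes called, 1869 with all libraries in asthma against control, ranged from 171 to 4262. They ranged from 0 to 114 around 1 in BSYQF against asthma, and from 9 to 563 around 246 in BSYQF against control. DESeq2 called 3258, 122 and 806 genes in these comparisons, and 3 members in BSYQF against control. With only 2 groups in the fit, 0 genes were called in BSYQF against asthma and 389 in BSYQF against control. Replicate numbers are shared labels with no pairing stated; as a replicate block they gave 15 genes in BSYQF against asthma and left 1 member called in asthma against control, Socs3, with Socs1 at an adjusted p of 0.0744 in edgeR. The cause of these shifts was not tested. Leaving out mitochondrial genes, chosen after seeing the data, changed no member's call. The lowest member count, 71 for Socs1, is well above 3, so depth limits the ligands more than the family.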

Other observations

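Cish was not among the genes for which like-patterned genes were to be named, and the following was chosen after its values were seen. Of the genes with a mean of at least 1 CPM, Ubb, Itgax and Bcap31 lay closest to Cish over the 9 libraries, at 0.148, 0.154 and 0.165 SD. Itgax, which encodes the integrin CD11c of alveolar macrophages and dendritic cells, was at 30.4, 32.0 and 31.2 CPM in control, 207, 291 and 108 CPM in asthma and 342, 116 and 53.0 CPM with BSYQF. Ubb was at 855 to 899 CPM in control, 992 to 1146 CPM in asthma and 881 to 1179 CPM with BSYQF. Bcap31 was at 147 to 167 CPM in control, 193 to 225 CPM in asthma and 143 to 250.6 CPM with BSYQF. Cish and Itgax were nearly constant over the controls. Cish, Itgax, Ubb and Bcap31 were each highest in BSYQF replicate 1. The part of any cell type in the level of Cish was not tested.

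Among Socs1, Socs3 and Cish, the 3 BSYQF libraries fell in different orders. Socs1 and Cish were highest in replicate 1, exceeding the mean of the controls by 2.203 and 0.97 in log2 CPM, where Socs3 was at 0.55. In replicate 2 Socs3 was at 1.49, and Socs1 and Cish were at 0.87 and 0.35. In asthma all 3 genes had their lowest value in replicate 3.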
